A study of Mus musculus with 31 samples.

Results

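Poly(A) RNA that sedimented with ribosomal subunits and single ribosomes was compared with poly(A) RNA of the unfractionated lysate in neocortex of wild-type (WT) mice on the day of birth (P0). The comparison held 6 of the 31 libraries of the study, chosen by genotype, age and RNA fraction: 3 monosome libraries and 3 total RNA libraries, numbered 0 to 2. Lysates were made in the presence of cycloheximide, which halts elongating ribosomes on the mRNA, and were spun through a gradient that was cut into 14 fractions. Monosome RNA came from fractions 4 to 7, which the labels call the 40S-60S-80S region, and polysome RNA from fractions 9 to 12. The other libraries used here were 3 of WT P0 polysome RNA, 2 of WT monosome and 2 of WT total RNA at embryonic day 13 (E13), and 2 of monosome and 3 of total RNA at P0 labelled as a conditional knockout (cKO). The gene knocked out is Elavl1, whose product HuR binds AU-rich mRNA elements. The labels name no strain, Cre driver or floxed part of the gene, and do not say whether libraries came from separate animals, so p-values measure the spread between libraries.

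A monosome pool of this kind holds several populations of RNA. An mRNA being translated by many ribosomes sediments deeper, in the polysomes. The lighter fractions hold mRNAs that carry a single ribosome, mRNAs bound only by an initiation complex, and ribonucleoprotein particles of similar size, including long non-coding RNAs. mRNAs that encode ribosomal proteins and several translation factors begin with a 5′ terminal oligopyrimidine (TOP) tract. They shift between translated and untranslated pools as a class, under control of the mTOR pathway. The total lysate holds all of these populations, including the polysomes, so a level in monosome RNA relative to total RNA is a share of the mRNA within a library and not an absolute amount.

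Ribosomal protein mRNAs, several mRNAs of the translation machinery and many long non-coding RNAs were higher in monosome RNA. mRNAs of the proteasome, the neurite cytoskeleton, hnRNP proteins and aminoacyl-tRNA synthetases were lower. Of 12123 genes with a mean of at least 1 FPKM (fragments scaled by transcript length and by library size) over the 15 WT libraries, 1295 (10.7%) were higher in monosome RNA and 3295 (27.2%) were lower. A gene was called at a Benjamini-Hochberg adjusted p under 0.05 in limma, on log2(FPKM + 1). A fold change is therefore understated for low genes. The median log2 difference over all genes was -0.21. With median ratio scaling between libraries the median was -0.02, and 2047 (16.9%) of 12105 genes were higher and 2249 (18.6%) lower. With every library scaled to the same sum it was -0.52, and 552 genes were higher and 5205 lower. The share of calls that were higher was thus 28.2% as deposited, 47.6% with median ratio scaling and 9.59% with equal sums, so differences below are best read against the median of all genes. All 3 monosome libraries lay above all 3 total libraries for 2142 genes (17.7%) and below them for 4747 (39.2%). Libraries of the same number deviated together, and a fit of the 6 libraries with that number as a block (the blocked fit below) called 2283 genes (19.3%) higher and 4958 (41.9%) lower. Its counts are given beside a list where they moved by over 1.5 times.

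**Figure D1:**
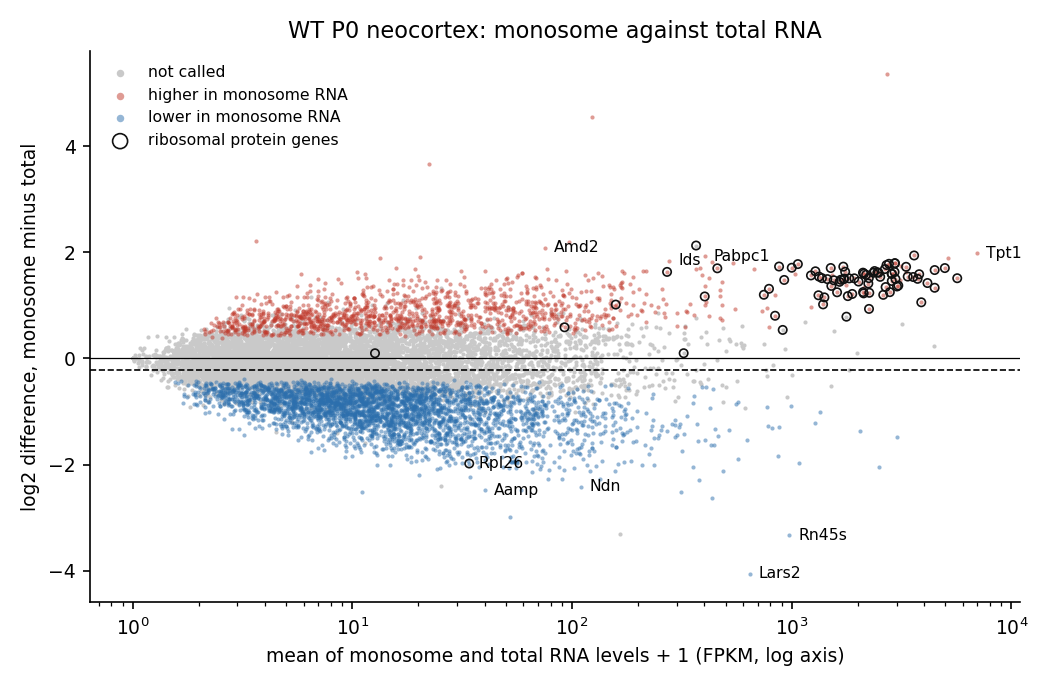
Each point is 1 of the genes tested, without Eef1a1, which was listed at 0 in monosome RNA. The horizontal axis gives the mean FPKM of both RNA kinds plus 1 on a log axis, and the vertical axis the log2 difference, monosome minus total. The dashed line marks the median of all genes at -0.21, and most ribosomal protein genes (open circles) sit at high levels well above it.

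Correlations of log2 levels over genes were 0.98 to 0.981 among monosome libraries, 0.979 to 0.983 among total libraries and 0.912 to 0.933 between the kinds. The values were deposited as FPKM only, so the depth in fragments is unknown. All 14 neocortex markers were measured, with summed levels of 727 to 897 FPKM in monosome RNA and 855 to 894 FPKM in total RNA. The 7 listed choroid plexus genes, of which 5 were tested, summed to 20.3 to 762 FPKM in monosome and 4.36 to 667 FPKM in total RNA. Most of this was Ttr, the transthyretin gene, at 22.9, 19.2 and 748 FPKM in monosome RNA and 1.92, 30.9 and 651 FPKM in total RNA. Replicate 2 was thus the high one in both RNA kinds, and no choroid plexus gene was called.

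Ribosomal protein genes were the most uniform group in the direction of monosome RNA. Of the 33 small-subunit genes, 31 were higher and none lower, with a median log2 difference of 1.54. Of the 49 large-subunit genes, 45 were higher and 1 lower, with a median of 1.47. Under each scaling tried, both medians stayed above 0. Together these genes took 40.1, 44.2 and 42.8% of the summed FPKM in the 3 monosome libraries, against 19.9, 18.8 and 20.2% in the 3 total libraries. Each monosome library was thus far above each total library. In polysome RNA of the same age their share was 6.93, 8.26 and 9.23%. FPKM values are relative within a library, so a share this large can lower the other genes on that scale. Summed FPKM was not equal between the kinds, at 563032 to 608742 in monosome and 426023 to 476287 in total libraries. How far the ribosomal protein share sets the balance of calls was not tested beyond the scalings above.

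Rps4x, which encodes a small-subunit protein, measured 4808, 6645 and 5725 FPKM in monosome RNA and 1590, 1343 and 1512 FPKM in total RNA. Its log2 difference was 1.94 ± 0.32 (SE, n = 3 libraries each), with a limma adjusted p of 0.000356. Rps6, whose protein is a phosphorylation target of the mTOR pathway, measured 1743, 2090 and 1985 FPKM in monosome RNA and 664, 553 and 645 FPKM in total RNA. The difference of Rps6 was 1.64 ± 0.26, and the groups were far apart. Rpl21 of the large subunit measured 1373, 1930 and 1650 FPKM in monosome RNA, against 505, 414 and 517 FPKM in total RNA, a difference of 1.78 ± 0.26. Rpl5, whose product carries 5S rRNA into the large subunit, differed by 1.73 ± 0.26, and Rpl4 by 1.60 ± 0.24. Rps3a and Rps7 differed by 1.79 ± 0.27 and 1.68 ± 0.28. Rps19 differed by 1.78 ± 0.33, with 3628, 4854 and 4396 FPKM in monosome RNA and 1377, 1132 and 1216 FPKM in total RNA. Rpl17 was among the largest called differences of all genes, at 1.79 ± 0.29.

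Rpl26 went the other way. It measured 19.4, 10.4 and 9.83 FPKM in monosome RNA and 54.5, 47.4 and 56.6 FPKM in total RNA, a difference of -1.98 ± 0.30 with a limma adjusted p of 0.000199. It was also lower in monosome RNA at E13, by -1.50, and in the P0 libraries labelled cKO, by -1.50. Its level in total RNA was far below that of Rpl21 or Rps6. Of the members that did not pass, named after their values were seen, Rps27 had the largest estimate of the small subunit but also a wide error (2.13 ± 1.35), and Rps2 was at 0.79 ± 0.32. Rpl36 was at 0.54 ± 0.44, Rpl34 at 0.10 ± 0.39 and Rpl36al at 0.10 ± 0.22. Ribosomal protein genes have many processed pseudogenes with near-identical sequence and the library kit does not keep the strand, so values of single members are uncertain.

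Other mRNAs of the TOP class were higher for 15 of 23 measured members and lower for none as deposited, with a median of 1.17. With equal library sums, 14 were higher and 2 lower, and in the blocked fit 17 were higher and 1 lower. Eef1a1, the remaining member of the list, is given separately below. Tpt1, which encodes the translationally controlled tumour protein, was the most abundant of them, at 9398, 12618 and 11472 FPKM in monosome RNA and 3015, 2515 and 2923 FPKM in total RNA. Its difference was 1.98 ± 0.30 (SE, n = 3 each), with a limma adjusted p of 0.000203. Pabpc1, the cytoplasmic poly(A)-binding protein, measured 590, 603 and 709 FPKM in monosome RNA and 184, 137 and 181 FPKM in total RNA. The difference of Pabpc1 was 1.92 ± 0.25. Gnb2l1, which encodes the ribosome-bound scaffold RACK1, differed by 1.57 ± 0.24, and Eif4b, a helper of the eIF4A helicase, by 1.35 ± 0.19. In polysome RNA, Tpt1 averaged 574 FPKM and Pabpc1 45.3 FPKM.

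The start sequences of these genes were read from RefSeq (GRCm38.p6) to set the tract beside the values, for genes chosen as examples after their values were seen. Each line gives 30 bases on the strand of the gene, of which the first 15 precede the annotated start. The bases within 10 either side of the start were searched on that strand for a run of at least 5 letters that are all C or T and begin with C. Capitals mark the part of a run inside those bases, and such a run can go on past them, as in Rpl27a. The first 5 genes hold such a run and the next 2 do not, and all 7 were higher in monosome RNA. The last 2, without a run, were lower. Other lower genes did hold a run, among them Lars2, Snap47 and, at 1 annotated start, Ubb. Other higher genes, such as Rps3a, Rpl5 and Rps7, held none.
Eif3f: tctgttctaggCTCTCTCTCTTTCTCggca
Rps6: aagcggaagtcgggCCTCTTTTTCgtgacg
Rpl27a: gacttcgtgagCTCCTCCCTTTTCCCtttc
Rps10: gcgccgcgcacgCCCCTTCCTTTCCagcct
Rpl31: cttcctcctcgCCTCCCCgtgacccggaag
Tpt1: gtcaccgctgacgacagttccgggggagcc
Rps4x: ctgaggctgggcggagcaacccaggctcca
Ndn: caatatcgcatcagccccgcccgcccgctg
Aamp: cgctctttcggccgggagtcacctacgcct
The windows lie at chr7:108934400-108934429 (plus strand) for Eif3f, chr4:86857353-86857382 (minus) for Rps6, chr7:109519180-109519209 (plus) for Rpl27a, chr17:27635230-27635259 (minus) for Rps10 and chr1:39367836-39367865 (plus) for Rpl31. Those of Tpt1 and Rps4x lie at chr14:75845241-75845270 (plus) and chrX:102189377-102189406 (minus), and those of Ndn and Aamp at chr7:62348262-62348291 (plus) and chr1:74284724-74284753 (minus). In the reference annotation Tpt1 also has earlier transcript starts, from position 75845093 of chromosome 14, so a window shows a single annotated start.

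Of 61 ribosomal protein genes with a RefSeq start, 34 (55.7%) held a run within the window, against 3108 of 9617 genes (32.3%) overall. Within the ribosomal protein genes the run did not go with a larger difference: the median was 1.45 for the 34 with a run and 1.51 for the 27 without. Over all 9617 genes the medians were -0.19 with a run and -0.23 without. In the 3 pairs of equal number, the medians with a run exceeded those without by 0.026, 0.039 and 0.05. Annotated starts can be off by several bases, so a missing run says only that these letters were not in this window.

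Translation factor genes divided. Of 39 initiation factor genes outside the TOP list, 5 were higher and 18 lower, with a median of -0.45 against -0.21 for all genes. With median ratio scaling 8 were higher and 11 lower, and in the blocked fit 8 and 23. Within the eIF3 complex, which holds the small subunit ready for mRNA recruitment, 5 of 13 subunit genes were higher and 4 lower. This eIF3 list was drawn up after values had been seen. Eif3f measured 751, 933 and 847 FPKM in monosome RNA and 250, 220 and 250.0 FPKM in total RNA, a difference of 1.81 ± 0.28 (SE). Eif3e and Eif3h were higher by 1.70 ± 0.24 and 1.43 ± 0.25. In contrast, Eif3b, a core scaffold subunit, measured 9.22, 10.0 and 10.7 FPKM in monosome RNA and 41.0, 42.8 and 45.7 FPKM in total RNA. The difference of Eif3b was -2.01 ± 0.22, with a limma adjusted p of 2.91e-05, so mRNAs of subunits of the same complex lay on opposite sides. Eif3b averaged 73.9 FPKM in polysome RNA and Eif3f 120 FPKM.

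Eif4ebp2, a repressor that sequesters the cap-binding protein eIF4E, was also higher, at 92.3, 86.6 and 85.6 FPKM in monosome RNA and 27.96, 29.9 and 26.5 FPKM in total RNA (1.61 ± 0.20, SE). Eif4a3, the helicase of the exon junction complex, was lower by -2.05 ± 0.26, and Eif6, which keeps free large subunits from joining, by -1.94 ± 0.25. mRNAs of the cytoplasmic aminoacyl-tRNA synthetases, which charge tRNAs, were lower for 14 of 20 members and higher for 1, with a median of -1.05. Wars, the tryptophan enzyme, measured 7.81, 7.96 and 7.47 FPKM in monosome RNA and 31.2, 32.7 and 32.0 FPKM in total RNA. The difference of Wars was -1.91 ± 0.22. Yars and Aars, for tyrosine and alanine, were lower by -1.81 ± 0.21 and -1.69 ± 0.16, and Farsa by -1.55 ± 0.18. The exception was Qars, for glutamine, named after its value was seen, with 55.7 ± 7.18 FPKM (SD, n = 3) in monosome and 22.9 ± 3.14 FPKM in total RNA.

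**Figure D2:**
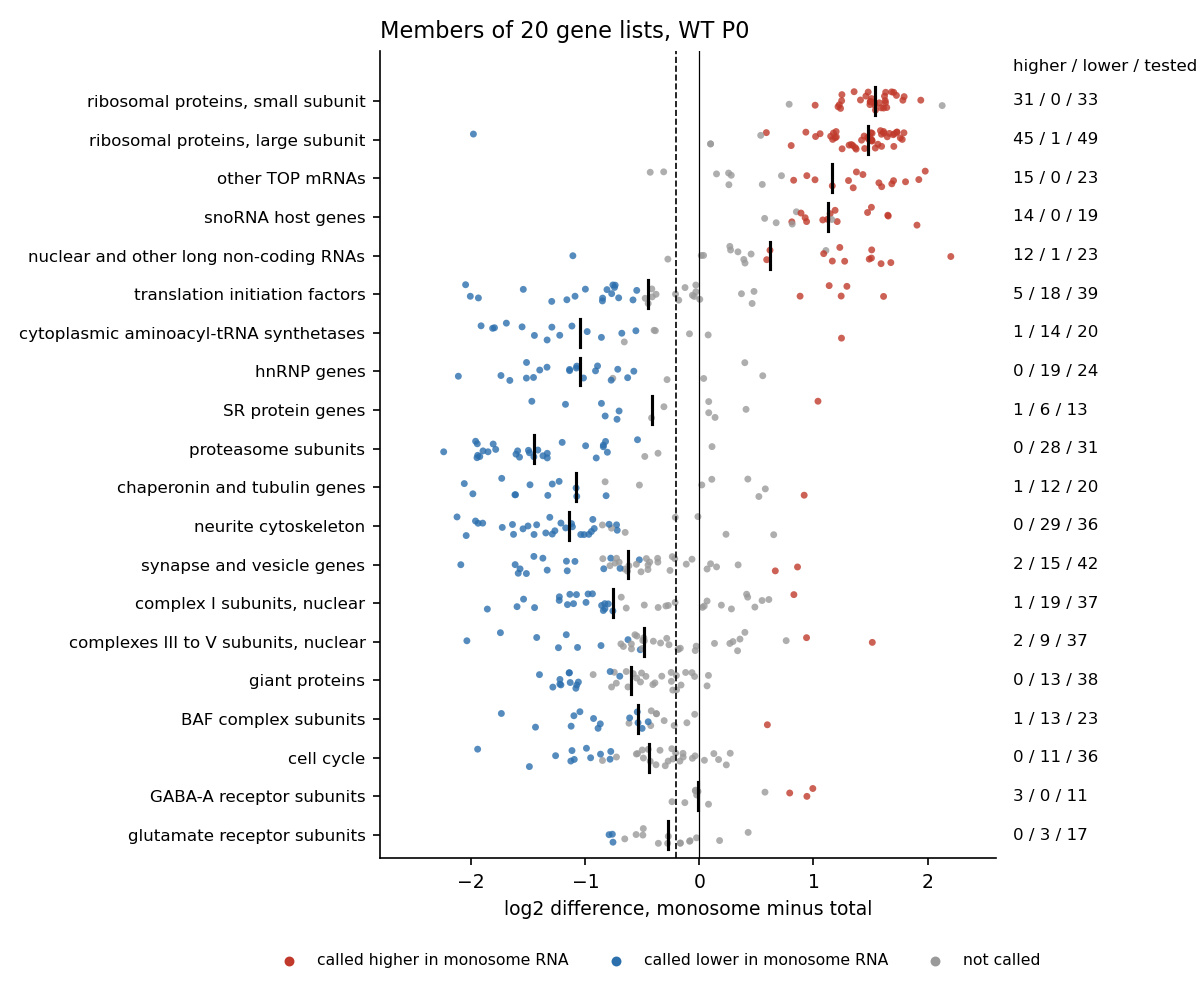
Log2 differences (monosome minus total, horizontal axis) of the measured members of 20 gene lists, a point per gene, coloured by call. Black bars give list medians and the dashed line the median of all genes at -0.21. Numbers at the right count members called higher, called lower and tested. The 5 lists at the top have medians above 0, from 1.54 to 0.62.

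Long non-coding RNAs were called higher in monosome RNA more often than protein-coding genes were. Of 251 annotated long non-coding genes tested, 74 (29.5%) were higher and 13 (5.18%) lower, with a median of 0.34, against 10.2% and 27.9% of 11686 protein-coding genes and a median of -0.23. Among snoRNA host genes, whose introns are processed into small nucleolar RNAs while the spliced exons are mostly not translated into stable protein, 14 of 19 were higher and none lower, with a median of 1.12. Gas5, a host gene with a TOP tract, measured 24.7, 41.1 and 27.9 FPKM in monosome RNA and 7.88, 8.07 and 6.36 FPKM in total RNA. The difference of Gas5 was 1.91 ± 0.32 (SE), with a limma adjusted p of 0.000412. Snhg8 was higher by 1.47 ± 0.27, and the genes listed as 1500012F01Rik and 2410004N09Rik by 1.66 ± 0.32 and 1.51 ± 0.27. In polysome RNA, Gas5 averaged 1.39 FPKM.

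Of 23 other long non-coding RNAs, 12 were higher and 1 lower, with a median of 0.62. The gene listed as 1700020I14Rik, a long intergenic RNA on chromosome 2, measured 165, 149 and 161 FPKM in monosome RNA and 34.7, 37.9 and 28.6 FPKM in total RNA. Its difference of 2.20 ± 0.25 exceeded that of every protein-coding gene named here. Neat1, the scaffold RNA of nuclear paraspeckles, measured 8.80, 8.21 and 6.42 FPKM in monosome RNA, 2.31, 1.79 and 1.64 FPKM in total RNA and a mean of 0.196 FPKM in polysome RNA. The Neat1 difference was 1.59 ± 0.23. Pvt1 was higher by 1.17 ± 0.17. D7Ertd715e, annotated as Snhg14 from the imprinted region on chromosome 7, was higher by 1.90 ± 0.36. The exception was Peg13, an imprinted non-coding gene named after its value was seen, at 27.7 ± 0.186 FPKM (SD, n = 3) in monosome and 61.4 ± 9.50 FPKM in total RNA.

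Amd2 and Ids, protein-coding genes outside these classes, were among the largest called differences. Amd2, a copy of the S-adenosylmethionine decarboxylase gene of polyamine synthesis, measured 104, 146 and 114 FPKM in monosome RNA and 28.5, 29.1 and 25.1 FPKM in total RNA. The Amd2 difference was 2.09 ± 0.27 (SE), with a limma adjusted p of 7.14e-05, and reads may be shared with its close relative Amd1. Amd1 was at -1.41 ± 0.93, in the other direction with a wide error, and was not called. Ids, the lysosomal iduronate sulfatase, measured 431, 420 and 442 FPKM in monosome RNA and 135, 110 and 115 FPKM in total RNA. The Ids difference was 1.84 ± 0.25, with polysome RNA at 39.8 FPKM.

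At the other end, Lars2 and Rn45s had the largest decreases, with wide errors. Lars2, annotated as the mitochondrial leucyl-tRNA synthetase, measured 18.0, 99.6 and 152 FPKM in monosome RNA and 1790, 657 and 1141 FPKM in total RNA, a difference of -4.06 ± 1.12. Without monosome replicate 0 its adjusted p in limma was 0.0563. Rn45s, the 45S pre-ribosomal RNA, measured 69.0, 164 and 367 FPKM in monosome RNA and 2099, 953 and 2184 FPKM in total RNA, a difference of -3.33 ± 0.80. Pre-ribosomal RNA carries no regular poly(A) tail, so its level also depends on what poly(A) selection let through, and this was not tested. Atp6v0c, a proton pump subunit, was at -2.98 ± 1.09, and that call was lost without monosome replicate 1 or 2 or total replicate 1 or 2 and with median ratio scaling (adjusted p of 0.0553 to 0.187 in limma).

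Decreases with smaller errors were seen for Aamp and Ndn. Aamp, a WD-repeat protein linked to cell migration, measured 10.1, 10.7 and 12.6 FPKM in monosome RNA and 62.0, 66.8 and 71.6 FPKM in total RNA. The Aamp difference was -2.48 ± 0.22 (SE), with a limma adjusted p of 1.38e-05. Ndn, the imprinted neuronal gene necdin, measured 37.6, 33.4 and 29.9 FPKM in monosome RNA and 202, 179 and 170 FPKM in total RNA, a difference of -2.42 ± 0.22. Aamp and Ndn averaged 109 and 296 FPKM in polysome RNA. Snrpb and Snrpd3, which encode Sm proteins of the spliceosome, were lower by -2.48 ± 0.35 and -2.28 ± 0.33. Ubb, a polyubiquitin gene, was lower by -2.64 ± 0.57, Hn1 by -2.29 ± 0.27, the membrane fusion gene Snap47 by -2.28 ± 0.23 and the ribosome biogenesis gene Rrp1 by -2.27 ± 0.20. Rps4y2, a low-level relative of Rps4x, was lower by -2.51 ± 0.51, in contrast to Rps4x itself.

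**Figure D3:**
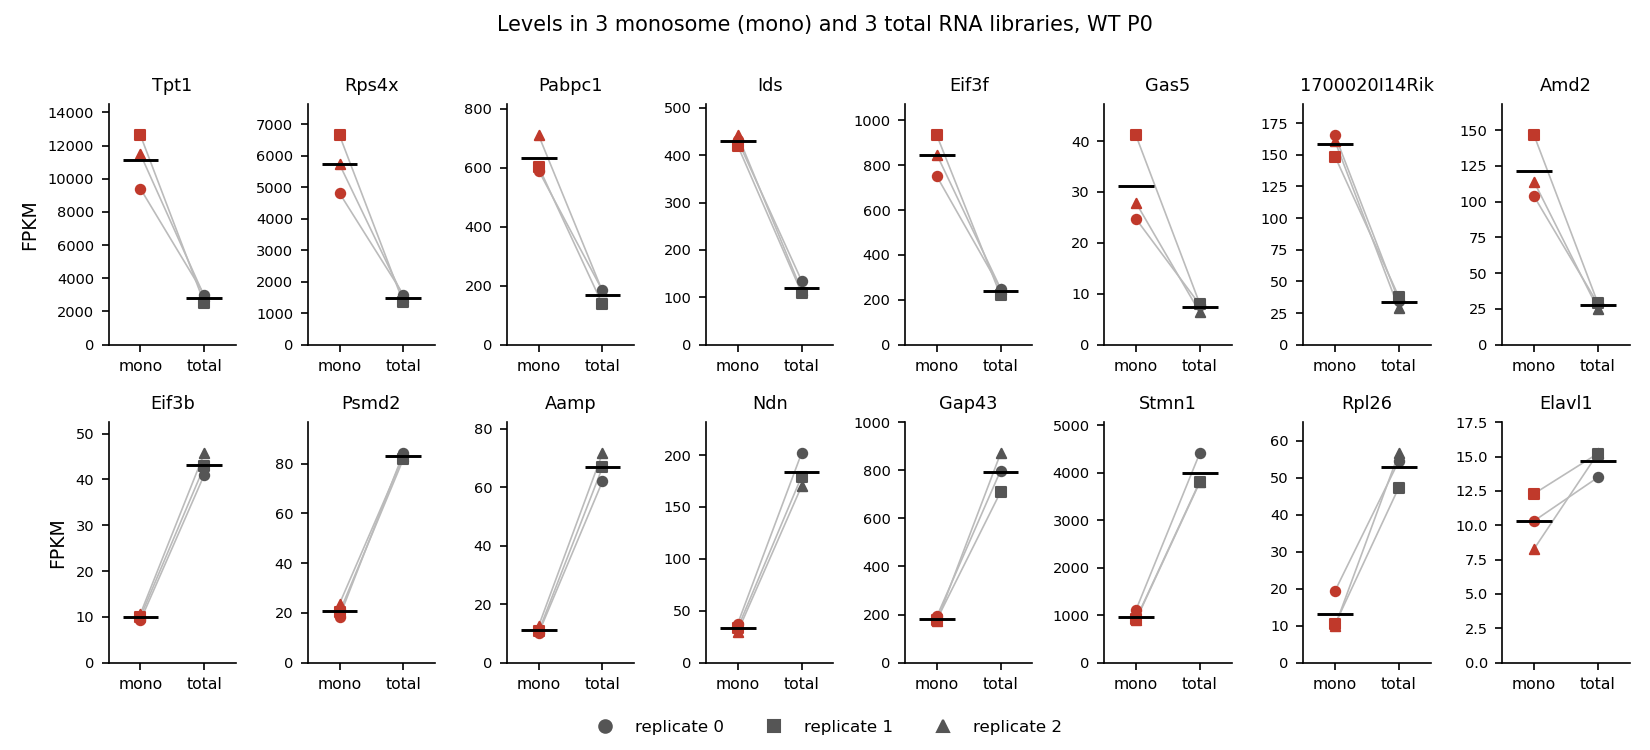
Levels in FPKM (vertical axis, from 0, scaled per gene) of 16 genes in the 3 monosome libraries (left, red) and the 3 total RNA libraries (right, grey) of WT P0 neocortex. Markers show the replicate number, grey lines join equal numbers and black bars are means. Monosome levels lie above total levels for the 8 genes of the top row and below them for those of the bottom row, of which Elavl1 was not called.

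The proteasome, which degrades ubiquitin-tagged proteins, was the list with the largest share of members lower. Of 31 proteasome subunit genes, 28 were lower and none higher, with a median of -1.45. Psmd2, of the regulatory particle, measured 18.5, 20.3 and 23.7 FPKM in monosome RNA and 84.1, 81.8 and 82.8 FPKM in total RNA. The Psmd2 difference was -1.95 ± 0.17 (SE), with a limma adjusted p of 1.38e-05. The ATPase subunits Psmc5 and Psmc4 were lower by -1.96 ± 0.23 and -1.79 ± 0.23, and Psmd12 by -1.58 ± 0.20. Of the 3 members that did not pass, named after their values were seen, Psma3 was at -0.36 ± 0.20, Psma5 at -0.48 ± 0.20 and Psmb1 at 0.11 ± 0.19, all in the catalytic core particle. Chaperonin and tubulin genes were lower for 12 of 20 and higher for 1, with a median of -1.08 (11 lower and 4 higher with median ratio scaling, 14 and 4 in the blocked fit). Tuba1a, the main alpha-tubulin of young neurons, measured 1309, 1614 and 1864 FPKM in monosome RNA and 4570, 4141 and 4572 FPKM in total RNA, a difference of -1.49 ± 0.24. Tubb4a and Tubb4b were lower by -2.06 ± 0.23 and -1.99 ± 0.25, and the chaperonin gene Cct7 by -1.62 ± 0.24. The member that was higher, Tcp1 (0.92 ± 0.22), named after its value was seen, encodes another chaperonin subunit.

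Among nuclear RNA-binding proteins, hnRNP genes were mostly lower, while lists of splicing regulators depended on the scaling. Of 24 hnRNP genes, 19 were lower and none higher, with a median of -1.05 (15 lower and 2 higher with median ratio scaling, 21 and 2 in the blocked fit). Hnrnpa2b1 measured 55.1, 59.3 and 56.2 FPKM in monosome RNA and 205, 175 and 197 FPKM in total RNA, a difference of -1.74 ± 0.20 (SE). Hnrnpk was lower by -1.66 ± 0.21, Hnrnpul2 by -1.52 ± 0.15 and Hnrnpr by -1.40 ± 0.19. Of 13 SR protein genes, which encode splicing regulators, 6 were lower and 1 higher, with a median of -0.42 (3 lower and 2 higher with median ratio scaling, 8 and 2 in the blocked fit). Srsf2 was lower by -1.47 ± 0.26, Srsf3 by -1.17 ± 0.21 and Srsf1 by -0.83 ± 0.21, while Srsf12 was higher by 1.04 ± 0.21. Of 21 CLK kinase and other genes known for retained introns, 5 were lower and 1 higher, with a median of -0.02. With median ratio scaling 1 was lower and 6 higher, and in the blocked fit 7 were lower and 7 higher, so this list has no stable direction. Ddx5 was lower by -0.89 ± 0.20. Of 23 BAF chromatin remodeler subunits, 13 were lower and 1 higher, with a median of -0.54 (7 lower and 1 higher with median ratio scaling), among them Smarcb1 (-1.74 ± 0.26), Smarce1 (-1.44 ± 0.23) and Brd9 (-1.05 ± 0.16).

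Genes of the neurite cytoskeleton, which shapes growing axons and dendrites, were mostly lower. Of 36 neurite cytoskeleton genes, 29 were lower and none higher, with a median of -1.15 (27 lower and 1 higher with median ratio scaling, 32 and 1 in the blocked fit). Gap43, the growth cone protein, measured 192, 179 and 171 FPKM in monosome RNA and 798, 710 and 870 FPKM in total RNA. The Gap43 difference was -2.12 ± 0.27 (SE), with a limma adjusted p of 6.72e-05. Stmn1, a microtubule destabiliser, measured 1108, 912 and 894 FPKM in monosome RNA and 4403, 3808 and 3791 FPKM in total RNA, a difference of -2.04 ± 0.28. The actin-severing Cfl1 and the collapsin response mediator Dpysl5 were lower by -1.96 ± 0.26 and -1.64 ± 0.21. Synapse and vesicle genes were lower for 15 of 42 and higher for 2, with a median of -0.62, beside 27.2% lower and 10.7% higher over all genes. The blocked fit called 29 lower and 2 higher. Among those lower were the fusion genes Stx1a (-1.52 ± 0.20) and Nsf (-1.33 ± 0.18) and the synapsin gene Syn1 (-1.45 ± 0.20). The 2 that were higher, named after their values were seen, were the vesicular glutamate transporter Slc17a7 (0.86 ± 0.32) and the scaffold Shank3 (0.67 ± 0.21), and with equal library sums no member was called higher.

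Of 11 GABA-A receptor subunit genes, 3 were higher and none lower, beside 10.7% higher and 27.2% lower over all genes. With equal library sums none was called, while in the blocked fit 5 of 12 tested were higher, beside 19.3% over all genes. Among the 3, Gabra5 measured 63.6, 101.2 and 106 FPKM in monosome RNA and 41.3, 45.2 and 49.8 FPKM in total RNA (0.94 ± 0.22, SE). With equal library sums its adjusted p in limma was 0.0969. The 8 subunits that were not called lay between -0.24 ± 0.25 (Gabrb1) and 0.57 ± 0.50 (Gabra2), and their groups overlapped. Of 17 glutamate receptor genes, 3 were lower and none higher, with a median of -0.28, a smaller share than the 27.2% of all genes. In the blocked fit 5 of 19 tested were lower and 1 higher, beside 41.9% lower over all genes in that fit. The 3 were Grm2 (-0.76 ± 0.19), Grin1 (-0.79 ± 0.27) and Grin2b (-0.76 ± 0.26), and with median ratio scaling Grin1 and Grin2b did not pass. Without monosome replicate 0 or 1 or total replicate 0 or 1, Grin1 was at adjusted p of 0.0574 to 0.133 in limma. Without monosome replicate 0 or 1 or any total replicate, Grin2b was at 0.0624 to 0.156.

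Laminar genes held calls in both directions. Of 14 upper-layer neuron genes, 1 was higher and 3 lower, and of 14 deep-layer genes, 2 were higher and 3 lower. Over all genes 10.7% were higher and 27.2% lower. In the blocked fit these were 4 higher and 6 lower and 2 higher and 8 lower, beside 19.3% and 41.9% over all genes. Cux1 measured 65.5, 81.3 and 85.0 FPKM in monosome RNA and 46.5, 49.1 and 53.1 FPKM in total RNA (0.62 ± 0.20, SE). Its paralog Cux2 was lower by -0.65 ± 0.21 and the transcription factor Pou3f1 by -1.44 ± 0.38. Fezf2, which specifies subcerebral projection neurons, was higher by 0.56 ± 0.20, and Tbr1, of corticothalamic neurons, lower by -0.71 ± 0.22. With equal library sums neither Cux1 nor Fezf2 passed, and with median ratio scaling neither Cux2 nor Tbr1 did. Those calls were also close to the threshold and were lost when any of several libraries was left out. Cux1 was lost without monosome replicate 1 or 2 or total replicate 0 or 1 (limma adjusted p 0.0612 to 0.0831), and Cux2 without monosome replicate 1 or 2 or total replicate 1 or 2 (0.0549 to 0.0859). Tbr1 was lost without monosome replicate 0 or 2 or total replicate 1 or 2 (0.0574 to 0.0718), and Fezf2 without monosome replicate 0 or 1 or any total replicate (0.0587 to 0.11). Radial glia and astrocyte genes were lower for 5 of 18 and higher for none, near the 27.2% lower of all genes, with summed levels of 465 to 775 FPKM in monosome and 1087 to 1635 FPKM in total RNA, among them Glul (-1.35 ± 0.18), Aldoc (-1.66 ± 0.25) and Fabp7 (-1.54 ± 0.29). In the blocked fit 9 were lower and 1 higher. Interneuron genes were lower for 1 of 13 and higher for none, and no neuropeptide gene of 8 passed. The blocked fit changed these calls, to 9 lower and 1 higher among interneuron genes and 5 lower among neuropeptide genes, beside 41.9% lower over all genes in that fit. The neuropeptide genes Pnoc, Penk and Npy were then at limma adjusted p of 0.0076, 0.0121 and 0.0249. Cell cycle genes were lower for 11 of 36 and higher for none, again near the share of all genes. Among these 11 were the helicase genes Mcm3 (-1.10 ± 0.18) and Mcm2 (-0.95 ± 0.16) and the ribonucleotide reductase gene Rrm2 (-1.49 ± 0.25). The blocked fit tested 32 cell cycle genes and called 21 lower, a larger share than the 41.9% of all genes in that fit.

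Markers of cells that a neocortex dissection can carry along showed no shift shared by all lists. The counts below stand beside 10.7% higher and 27.2% lower over all genes, and 19.3% and 41.9% in the blocked fit. Of 7 oligodendrocyte lineage genes, 4 were lower and 1 higher, with a median of -0.64. Levels of all 10 listed genes of this lineage summed to 35.8 to 46.4 FPKM in monosome and 60.5 to 66.8 FPKM in total RNA. Of 12 microglia genes, Tyrobp was higher (0.78 ± 0.21, SE) and C1qc lower (-0.63 ± 0.23), with summed levels of 59.6 to 90.3 FPKM in monosome and 66.7 to 82.0 FPKM in total RNA. Tyrobp was not called with equal library sums, nor C1qc with median ratio scaling or without monosome replicate 0 or 1 or total replicate 1 or 2 (limma adjusted p 0.0799 to 0.202). All 12 listed endothelial and pericyte genes summed to 21.1 to 30.6 FPKM in monosome and 27.1 to 37.9 FPKM in total RNA. Of the 9 tested, Kcnj8 and Rgs5 were lower. The Kcnj8 call was lost without monosome replicate 1 or total replicate 2 (0.0635 and 0.0841), and that of Rgs5 without monosome replicate 0 or 1 or total replicate 0 or 2 (0.0537 to 0.111). Of 12 meningeal genes, which summed to 359 to 556 FPKM in monosome and 325 to 724 FPKM in total RNA, Igf2 was higher, at 239, 184 and 165 FPKM in monosome RNA and 118, 56.5 and 62.5 FPKM in total RNA (1.36 ± 0.36). None of 10 erythroid genes tested passed. The 11 that were matched summed to 96.1 to 325 FPKM in monosome and 119 to 329 FPKM in total RNA. The embryonic globin gene Hbb-bh1 was listed at 0 in all 6 libraries. In the blocked fit 3 microglia genes were lower and 2 higher, and 4 meningeal genes lower and 1 higher. Of 5 erythroid genes tested in that fit, 1 was lower and 1 higher. A difference in a marker between the RNA kinds of the same lysate does not measure the number of cells.

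Nuclear genes of the respiratory chain had more calls in the lower than in the higher direction. Of 37 complex I subunit genes, 19 were lower and 1 higher, with a median of -0.76 (14 lower and 4 higher with median ratio scaling, 23 and 5 in the blocked fit). Ndufa9 measured 17.0, 15.8 and 17.4 FPKM in monosome RNA and 64.2, 62.2 and 63.5 FPKM in total RNA, a difference of -1.86 ± 0.23 (SE). Ndufv1 and Ndufs1 were lower by -1.60 ± 0.19 and -1.45 ± 0.18. Of 37 subunits of complexes III to V, 9 were lower and 2 higher, with a median of -0.48, beside 27.2% lower over all genes. With median ratio scaling 6 were lower and 4 higher, and in the blocked fit 19 and 6. Atp5b, the catalytic subunit of ATP synthase, measured 128, 148 and 160 FPKM in monosome RNA and 488, 471 and 503 FPKM in total RNA (-1.74 ± 0.25). Cox7a2l, a factor of respiratory supercomplexes, measured 516, 683 and 663 FPKM in monosome RNA and 205, 198 and 244 FPKM in total RNA (1.52 ± 0.29). At E13 the medians of both lists were 0.12 and 0.13, and in the P0 libraries labelled cKO 0.09 and 0.34, beside -0.04 and -0.02 for all genes. No member was called for the difference between ages or between genotypes.

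mRNAs with known translational control elements gave mixed values. The counts below stand beside 10.7% higher and 27.2% lower over all genes, and 19.3% and 41.9% in the blocked fit. Of 15 mRNAs regulated by upstream open reading frames, 3 were lower and none higher: Azin1 (-1.28 ± 0.15, SE), Mapk6 (-0.97 ± 0.19) and Ifrd1 (-0.94 ± 0.24). The blocked fit called 8 lower and 2 higher. Of 10 antizyme and iron response element mRNAs, Slc40a1, the iron exporter ferroportin, was higher at 11.9, 20.0 and 17.1 FPKM in monosome RNA, against 4.27, 4.69 and 4.88 FPKM in total RNA (1.60 ± 0.20). Epas1 was higher by 1.05 ± 0.20, and in the blocked fit 3 of the 10 were higher and 3 lower. The ferritin genes are the classic targets of iron-regulated repression. Ftl1 measured 810, 960 and 916 FPKM in monosome RNA, 1908, 1584 and 1921 FPKM in total RNA and 259 FPKM in polysome RNA, a difference of -1.01 ± 0.30. With median ratio scaling its adjusted p in limma was 0.0611, and without monosome replicate 0 or total replicate 0 or 2 it was 0.0538 to 0.0586. Fth1 was at -0.73 ± 0.29 and was not called, but passed in a fit of the 6 libraries alone (0.0061). Of 14 selenoprotein genes, 3 were higher and 5 lower. Sepw1 measured 3268, 2852 and 3012 FPKM in monosome RNA, 1173, 1059 and 1361 FPKM in total RNA and 191 FPKM in polysome RNA (1.35 ± 0.33), while Txnrd1, a thioredoxin reductase, was lower by -1.25 ± 0.28. Of 16 short-lived transcription factor genes, 6 were lower and none higher, among them Ier5 (-0.99 ± 0.21), Ier2 (-1.22 ± 0.36), Jun (-0.81 ± 0.25) and Myc (-0.57 ± 0.19). In the blocked fit 9 of 17 tested were lower and 3 higher. With median ratio scaling Jun and Myc did not pass. Without monosome replicate 2 or total replicate 2, Ier2 was at limma adjusted p of 0.0592 and 0.0644. Jun was at 0.0514 to 0.0939 without monosome replicate 1 or 2 or total replicate 2, and Myc at 0.0572 to 0.0878 without any monosome replicate or total replicate 0 or 2. Of 6 measured replication-dependent histone genes, whose mRNAs mostly lack a poly(A) tail, 2 were lower. Zinc finger genes named Zfp were higher for 32 of 279 and lower for 31, and predicted genes (symbols such as Rik clones) for 149 and 145 of 898, with medians of -0.01 and 0.00 and a sign that changed with the scaling. The blocked fit called 67 Zfp genes higher and 60 lower, and of 893 predicted genes 277 higher and 249 lower. None of the 13 mitochondrially encoded mRNAs was matched.

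Elavl1 itself (chromosome 8, 4285382 to 4325413, minus strand, GRCm38) measured 10.3, 12.3 and 8.28 FPKM in monosome RNA and 13.5, 15.2 and 15.2 FPKM in total RNA. The 3 monosome libraries were all lower, but the difference of -0.48 ± 0.30 (SE) did not pass (limma adjusted p = 0.233). It passed in a fit of the 6 libraries alone (0.0257), in that fit with the replicate number as a block (0.0128) and with equal library sums (0.0374). In the P0 libraries labelled cKO, Elavl1 measured 29.9 and 24.5 FPKM in monosome RNA and 17.8, 25.1 and 28.5 FPKM in total RNA, in a table scaled separately. The mRNA was thus present there, and FPKM per gene carry no information on single exons. Of 27 textbook HuR targets, 4 were higher and 12 lower, with a median of -0.54, beside 10.7% higher and 27.2% lower over all genes. They included Trp53, the tumour suppressor p53 (-1.53 ± 0.20), Gap43, Pabpc1 and the RNA-binding Msi1 (1.31 ± 0.18).

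Protein length was set beside the differences, using the longest coding sequence per gene in GENCODE vM21. Over 11677 genes the median was 0.07 for proteins of up to 100 residues (225 genes), between -0.24 and -0.21 for the 4 bins of middle length and -0.34 above 1600 residues (501 genes). The shortest bin held 20% higher and 9.78% lower genes, and the longest bin 2.99% higher and 27.7% lower genes. The gap between those bins was 0.41, and 0.589, 0.565 and 0.205 in the 3 pairs of equal number, but 0.127 without a filter on low values. Without ribosomal protein genes the median of the shortest bin was 0.03. Of the shortest proteins, Rpl41, a ribosomal protein, was higher (1.51 ± 0.45, SE), while Ost4 of the oligosaccharyltransferase, at 178, 117 and 165 FPKM in monosome RNA and 111, 87.6 and 100.8 FPKM in total RNA, was not called (0.60 ± 0.28). Of the longest, the ubiquitin ligase Ubr4 was lower (-1.06 ± 0.21), and the cytolinkers Dst (-0.73 ± 0.29) and Macf1 (-0.64 ± 0.25) did not pass. In a fit of the 6 libraries alone Ost4, Dst and Macf1 passed, at limma adjusted p of 0.0151, 0.0149 and 0.019. Of 38 giant protein genes, 13 were lower and none higher, with a median of -0.60, beside 27.2% lower over all genes. In the blocked fit 24 of 37 tested were lower, beside 41.9% over all genes in that fit. Among the 13 were Dync1h1, the dynein heavy chain (-1.22 ± 0.20), and the remodelers Chd5 (-1.28 ± 0.19) and Chd8 (-1.22 ± 0.25). Without ribosomal protein genes, genes with a 3′ untranslated region over 3200 bases had a median of -0.05. Those above 200 and up to 400 bases were at -0.32, the lowest of the bins, and those of up to 200 bases at -0.255. In the libraries labelled cKO the same bins were at -0.07 and -0.03, and at E13 both were at -0.05.

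**Figure D4:**
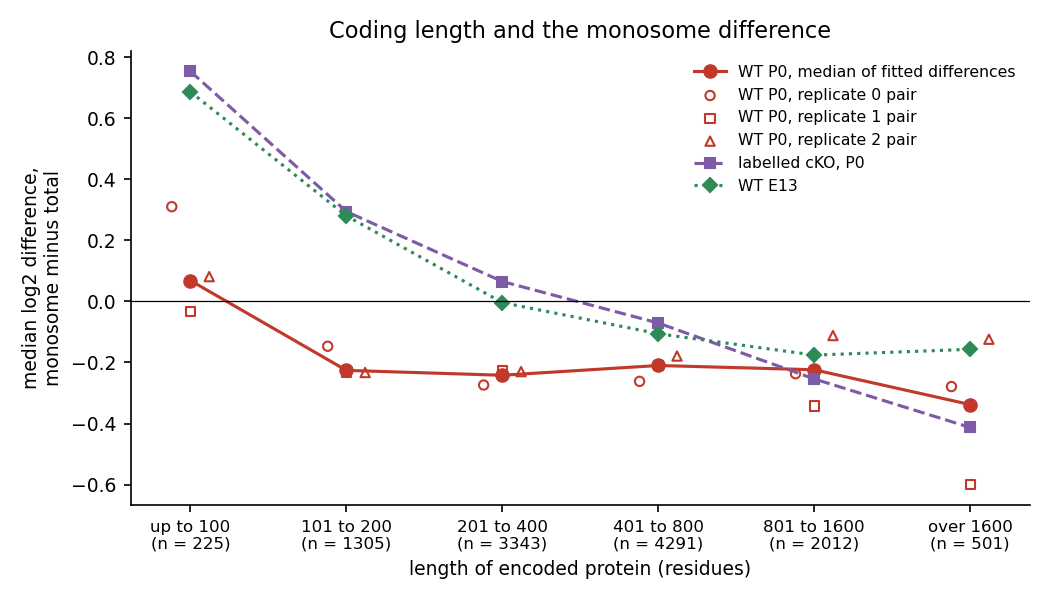
Median log2 difference, monosome minus total (vertical axis), of genes binned by the length of the encoded protein in residues (horizontal axis, with the number of genes). Filled red points are the fitted WT P0 medians, open red markers the 3 pairs of equal number, purple squares the P0 libraries labelled cKO and green diamonds WT E13. The shortest bin is highest in each set of libraries.

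Eef1a1, the elongation factor that brings tRNA to the ribosome and a member of the TOP class, was listed at 0 in all 3 monosome libraries. In total RNA it was listed at 7038, 5806 and 6710 FPKM and in polysome RNA at 2447, 2578 and 2251 FPKM. It was also listed at 0 in both P0 monosome libraries labelled cKO, but at 12066 and 22285 FPKM in WT E13 monosome RNA. A value of 0 can be a failed estimate, so no fold change is given for it. The remaining genes of this kind were small RNA genes: Mir686 and Snora15, with a value in only 1 total library each, and Snora28, listed at 0 in total RNA and at 0, 16.8 and 112 FPKM in monosome RNA.

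The directions were then looked up in libraries that the comparison did not use. In the P0 libraries labelled cKO, 1285 of the 1295 genes that were higher in WT were tested, and 1280 (99.6%) had the same sign and 983 (76.5%) were called higher. Of the genes that were lower, 3291 were tested, 3187 (96.8%) had the same sign and 1182 (35.9%) were called lower. None of either was called the other way. Among all 12302 genes of these libraries, 48.3% had a positive and 51.6% a negative difference, and 1596 (13%) were called higher and 1219 (9.91%) lower. At E13 in WT, 1245 (96.1%) of the higher and 2806 (85.2%) of the lower genes had the same sign, and 659 and 1040 were called the same way and 1 and 9 the other way, beside 1042 (8.6%) and 1200 (9.9%) calls over all genes. The E13 libraries entered the same fit and share its estimate of spread. Between WT and cKO, no gene of 12233 (0%) passed the test of the difference in limma, and 599 had an unadjusted p under 0.05 (69 with median ratio scaling). A missed threshold with 2 cKO monosome libraries does not show that the genotypes are alike.

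Ribosomal protein genes were higher in each set, for 32 of 33 small-subunit genes in the libraries labelled cKO and 28 of 33 at E13. The small-subunit median was 2.42 in the libraries labelled cKO and 1.24 at E13, and the large-subunit median was 2.36 and 1.17, beside 1.54 and 1.47 in WT at P0. All medians here are of values as deposited. Over all genes they were -0.21 in WT at P0, -0.02 in the libraries labelled cKO and -0.04 at E13. The all-gene median of WT minus cKO was -0.24, and -0.03 with median ratio scaling, so gaps between sets are best read against these medians. Proteasome genes had medians of -1.003 in the libraries labelled cKO and -1.20 at E13, beside -1.45. Neurite cytoskeleton genes were at -0.91 and -0.50, beside -1.15, and synapse genes at -0.53 and 0.01, beside -0.62. Gap43 was lower by -1.78 in the libraries labelled cKO and was at -0.44 at E13 without passing. Cell cycle genes were at -0.22 and -0.88, beside -0.44, with Mcm3 at -1.13 and -1.83. Between P0 and E13, 9 genes (0.0742%) passed the test of the difference, 2 (0.0165%) higher and 7 (0.0577%) lower at P0, and none of them was a member of the protein-coding lists above other than Eef1a1 and Basp1.

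**Figure D5:**
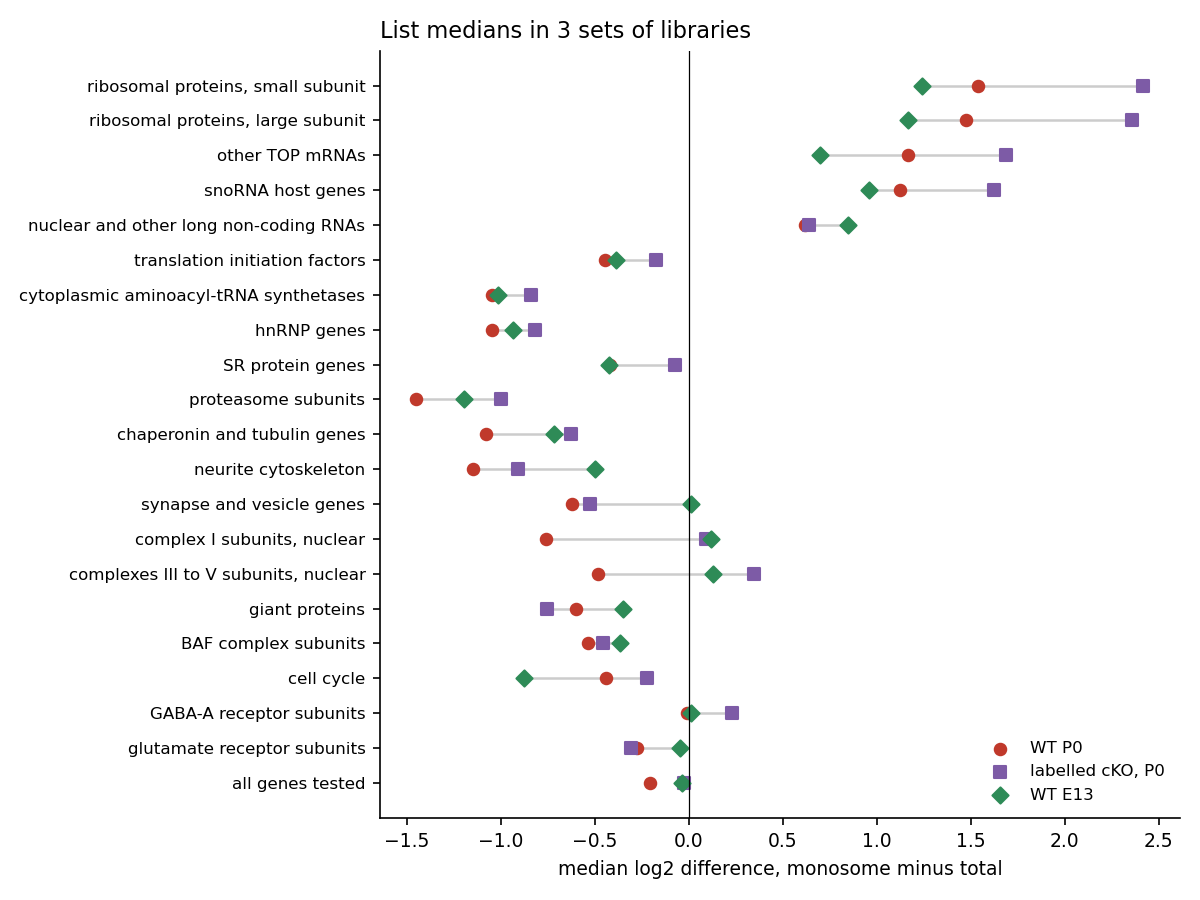
Median log2 difference, monosome minus total (horizontal axis), of 20 gene lists and of all genes tested, in WT P0 (red circles), the P0 libraries labelled cKO (purple squares) and WT E13 (green diamonds). Ribosomal protein lists lie between 1.17 and 2.42 in the 3 sets, and the respiratory chain lists lie below 0 in WT P0 and above 0 in the others.

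Polysome RNA of the same age was set beside these values, with the caution that monosome against polysome shares the monosome libraries and polysome against total the total libraries. Monosome against polysome called 59.8% of genes, 2462 (20.3%) higher and 4793 (39.5%) lower, and polysome against total 812 (6.7%) higher and 1184 (9.77%) lower. For small-subunit ribosomal protein genes the medians were 2.97 for monosome minus polysome and -1.42 for polysome minus total. snoRNA host genes were at 2.56 and -1.42, and other long non-coding RNAs at 1.68 and -1.06. Proteasome genes were at -2.22 and 0.76, hnRNP genes at -1.57 and 0.67 and neurite cytoskeleton genes at -1.66 and 0.54. The giant protein list was at -0.17 for polysome minus total, while the 501 genes of over 1600 residues were at 0.04.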

How the data were processed

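Poly(A) RNA of neocortex was sequenced as paired-end reads with a kit that does not keep the strand. FPKM values per gene were deposited by the authors in separate WT and cKO tables. TopHat2 2.0.6, Bowtie2 2.0.5.0, Cuffdiff and the builds mm10 and GRCm38 are named in the submitters' processing notes. Depth in fragments is unknown, so no counting error is given. Of 23284 genes listed, 26 whose identifier was a date or a bare number were left out. Log2(FPKM + 1) values were fitted with limma 3.58.1 in R 4.3.3 with an intensity trend, over the 15 WT libraries (16 in the cKO table) and genes with a mean of at least 1 FPKM. Tests were two-sided, with Benjamini-Hochberg adjustment and a threshold of 0.05. The fit was tested on simulated data.

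The members and gene lists were chosen with earlier results of these data known. Named genes were Elavl1, the 12 called genes with the largest difference in each direction (mean of at least 5 FPKM, no overlap between groups, no predicted, small RNA or pseudogene), up to 4 members of each list by adjusted p, genes listed at 0 in 1 group, and the 5 shortest and 5 longest proteins. Of 918 list members, 859 matched by symbol and 38 by synonym. Same-numbered libraries deviated together (correlations of 0.454, 0.484 and 0.421, against -0.294 to -0.145 for different numbers), so the numbers pair them, as found in the data and not given by the labels. Columns of the cKO table were mapped to groups only. Protein lengths are from GENCODE vM21 coding sequences, and start sequences from RefSeq. Alternatives were other scalings, pseudocount, filters, blocking, a fit of the 6 libraries alone, no trend and leaving out each library. Some genes are not reported here.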

Additional observations from a re-analysis of the deposited data

Results flagged for a closer look

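The difference between monosome and total RNA differed between P0 and E13 for 9 genes, by a test of that difference itself in limma with Benjamini-Hochberg adjustment. Prrt2, which encodes a presynaptic membrane protein, measured 15.3, 17.4 and 16.1 FPKM in monosome and 37.0, 37.0 and 45.4 FPKM in total RNA at P0. At E13 it measured 7.00 and 5.64 FPKM in monosome and 3.45 and 2.61 FPKM in total RNA. The differences thus had opposite signs between the ages, and differed by -2.10 ± 0.30 (SE, adjusted p = 0.0122). Basp1, a growth cone protein, differed by -2.39 ± 0.39 (0.0338), with 221, 217 and 176 FPKM in monosome and 579, 560 and 655 FPKM in total RNA at P0. At E13 Basp1 was at 293 and 245 FPKM in monosome and 165 and 134 FPKM in total RNA. Vsnl1, a neuronal calcium sensor, differed by -1.96 ± 0.34 (adjusted p = 0.0423), but was near 1 FPKM or below at E13. Spryd3 differed by -1.56 ± 0.25 (adjusted p = 0.025) and 2310028H24Rik by -1.44 ± 0.24 (adjusted p = 0.0347). The others were the small RNA genes Snora65 (adjusted p = 1.5e-05), Snora43 (0.000129) and Snord15b (0.025), and Eef1a1 (2.22e-12), listed at 0 in P0 monosome RNA and given no fold change.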

How the results depend on the processing

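Against 1295 genes higher and 3295 lower as reported, median ratio scaling called 2047 higher, equal library sums 552 higher and 5205 lower, and the 6 libraries with the replicate number as a block 2283 higher and 4958 lower. The replicate block over all P0 libraries gave 1392 higher and 3461 lower. Leaving out a library gave 913 to 1060 higher and 2596 to 2744 lower. Of 13 lists with at least 50% of members called in 1 direction as reported, equal sums gave 20, the 6 libraries with the block 26 and leaving out a library 9 to 11. Of 9 genes that differed between P0 and E13, 4 passed with median ratio scaling and 3 to 6 without a library. The gap between shortest and longest proteins was 0.127 without a filter, and that between genes with and without a tract 0.003 without a filter and 0.073 at a minimum of 5 FPKM. The cause was not tested. Of 229 named genes, 149 were called and 120 of these under every alternative that tested them. None reversed. Depth cannot be judged from FPKM.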

Other observations

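Gene families were grouped by symbol after their values had been seen, so the counts are a description. Over all genes, 10.7% were higher and 27.2% lower in WT at P0. Of 21 Zdhhc palmitoyltransferase genes, which encode membrane enzymes that attach palmitate to proteins, 11 were higher in monosome RNA and none lower, with a median log2 difference of 0.46 against -0.21 for all genes. Zdhhc2 measured 65.7, 67.7 and 63.2 FPKM in monosome and 23.8, 22.7 and 22.0 FPKM in total RNA, a difference of 1.48 ± 0.20 (SE). Zdhhc3 was higher by 1.17 ± 0.17. The family median was 0.64 in the P0 libraries labelled cKO and 0.42 at E13, beside -0.02 and -0.04 for all genes.

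Of 17 Atp6v genes of the vacuolar proton pump, 12 were lower and none higher, with a median of -1.03. Atp6v1e1 measured 32.2, 32.0 and 36.9 FPKM in monosome and 156, 136 and 152 FPKM in total RNA (-2.10 ± 0.20). Of 28 genes named Vps, most of them for vesicle sorting, 19 were lower and 1 higher, with a median of -0.94. Rab7, a late endosome GTPase, was lower by -2.03 ± 0.25, in a family of 54 with 25 lower and 3 higher. Of 76 mitochondrial ribosomal protein genes, 33 were lower and 3 higher, with a median of -0.57, in contrast to the cytoplasmic ribosomal protein genes. In the P0 libraries labelled cKO 8 of the 76 were lower and 8 higher, with a median of 0.03, and at E13 6 and 4, with -0.11. These counts lay near the shares of all genes, which were 9.91% lower and 13% higher in the libraries labelled cKO. At E13 those shares were 9.9% and 8.6%. The cKO and E13 medians were -0.43 and -0.285 for Atp6v, -0.69 and -0.53 for Vps and -0.205 and 0.045 for Rab genes. For all genes they were -0.02 and -0.04.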
